A study of Mus musculus with 6 samples.

Results

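The genes of the FSH, inhibin and activin axis were described by DNA methylation in the right testis of adult KM mice. The 10 genes were Fshr, Inha, Inhba, Inhbb, Fst, Acvr2a, Acvr2b, Amh, Tgfbr3 and Smad3. The measurements were the cytosine positions with at least 10 reads in all 6 libraries that lay between 2000 bp before and 2000 bp past each gene on build GRCm38. The rule gave 952 positions out of 952515 in the series. Of these, 638 lay in windows placed at a gene start, or at a gene end taken as the promoter end, and 314 in the rest of the genes. The 638 include 44 positions of Amh, whose window is taken below to be its far end. The mice of the first group had lost the left testis before puberty (hemicastrated, n = 3), and those of the second had been operated on without removal (sham, n = 3). All 6 were males of the outbred KM strain, sampled once mature, with 1 library per mouse and no pooling or genetic alteration stated. Libraries were made by reduced representation bisulfite sequencing, in which MspI cuts DNA at CCGG and the unmethylated cytosines of the size-selected fragments are converted. Whole testis was used, so a change of methylation within a cell type and a change in that type's share of the DNA cannot be told apart.

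Follicle-stimulating hormone from the pituitary acts on its receptor, encoded by Fshr, on Sertoli cells, the somatic cells that nurse germ cells. Sertoli cells answer with inhibin, a dimer of the alpha subunit (Inha) with a beta A (Inhba) or beta B subunit (Inhbb), which lowers FSH secretion. Beta subunits paired with each other form activin, which opposes inhibin, signals through the type II receptors Acvr2a and Acvr2b to Smad3, and is bound by follistatin (Fst). Betaglycan (Tgfbr3) is the co-receptor that lets inhibin occupy activin receptors, and anti-Müllerian hormone (Amh) is a related Sertoli cell ligand. Loss of a testis removes inhibin and is known to raise FSH.

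The starts of these genes differ widely in CpG content, and they also differ in the number of CCGG sites that MspI cuts. Below, 3 promoters are shown from 250 bases before to 50 bases after the gene start, read 5′ to 3′ on the gene's strand, with every CpG in capitals. The sequences are from RefSeq on build GRCm38.p6, whose promoter table matched 7 of the 10 genes, leaving Fst, Amh and Tgfbr3 named only. They were chosen to show the CpG-richest start and a pair of CpG-poor ones. The Acvr2a promoter (chr2:48813859-48814158, plus strand), the Inhba promoter (chr13:16011601-16011900, plus strand) and the Fshr promoter (chr17:89200626-89200925, minus strand) read as follows.
Acvr2a: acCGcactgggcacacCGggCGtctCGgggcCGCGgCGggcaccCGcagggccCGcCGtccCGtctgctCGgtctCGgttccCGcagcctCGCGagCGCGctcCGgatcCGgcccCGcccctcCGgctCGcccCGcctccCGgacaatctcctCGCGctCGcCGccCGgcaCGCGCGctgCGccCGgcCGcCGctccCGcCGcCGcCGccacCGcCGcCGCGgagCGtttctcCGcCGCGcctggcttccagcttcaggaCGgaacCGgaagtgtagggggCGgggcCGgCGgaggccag
Inhba: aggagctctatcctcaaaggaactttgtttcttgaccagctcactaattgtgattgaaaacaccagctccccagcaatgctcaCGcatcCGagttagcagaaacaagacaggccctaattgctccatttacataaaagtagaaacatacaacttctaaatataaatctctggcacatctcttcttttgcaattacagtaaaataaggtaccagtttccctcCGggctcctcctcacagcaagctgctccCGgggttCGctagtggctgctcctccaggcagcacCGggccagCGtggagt
Fshr: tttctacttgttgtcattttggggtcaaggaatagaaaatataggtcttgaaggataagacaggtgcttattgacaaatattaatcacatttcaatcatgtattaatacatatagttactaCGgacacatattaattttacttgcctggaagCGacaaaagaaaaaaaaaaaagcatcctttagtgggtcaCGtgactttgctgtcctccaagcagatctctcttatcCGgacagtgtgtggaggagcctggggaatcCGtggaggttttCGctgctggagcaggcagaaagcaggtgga

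The Acvr2a window held 54 CpGs and 9 MspI sites and had more CpGs than 99.7% of the 32851 windows in the table, whose median was 7. Inhbb, Smad3 and Acvr2b held 23, 25 and 27 CpGs, with 2, 2 and 4 MspI sites. Inhba held 7, Fshr 6 and Inha 5 CpGs, with 3, 1 and 1 MspI sites. The number of sites thus did not simply follow that of CpGs. In the windows of Acvr2a, Smad3 and Inhba, 60, 6 and 1 positions were measured. Those of Fshr, Inha, Inhbb and Acvr2b held no position with enough reads. Over all windows, 99.6% of the 145488 measured positions fell on a CpG of the RefSeq sequence, which places the deposited coordinates on this build. On either strand, the E-box CACGTG stood in the Fshr window, its first base at -61 from the gene start, in none of the other 6 windows and in 7.15% of all windows. The cAMP response element TGACGTCA, present in 1.79% of all windows, was in none of the 7, and neither was CAAGGTCA, a site of the SF-1 type present in 1.56%. These are letter matches, and none of them is shown to be bound.

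The libraries held 64504011 to 78630942 calls, and the member positions had 10 to 219 reads in a library. Of the mitochondrial calls, a stand-in for DNA without methylation, 0.478% to 0.617% read as methylated (Wilson 95% bounds over the libraries 0.326% to 0.884%), and lower levels cannot be told from this floor. Among germline genes that somatic tissue methylates, 8 of 13 had a measured promoter end, averaging 22.5% ± 3.81 in hemicastrated against 19.4% ± 1.13 in sham mice (SD, n = 3 each). The highest library was hemicastrated replicate 1, at 26.9%. Among maternally methylated imprinted genes, which male germ cells leave unmethylated, 8 of 12 were measured, with 11.6% ± 1.60 in hemicastrated and 10.5% ± 1.46 in sham mice (SD, n = 3 each). The two-sided exact permutation p was 0.2 for the germline genes and 0.4 for the imprinted genes, in a design that allows no p under 0.1. Their part in the results below was not tested.

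In their promoter-end windows the axis genes had levels under 1% in all libraries but 1 of Acvr2b. A promoter end was taken from 2000 bp before to 1000 bp past the gene start, and its level is the unweighted mean over its positions. The starts used for Inhba, Inha and Acvr2b lie inside the bounds of these genes. That of Inhba is chr13:16011851, in a gene that runs over chr13:16004256-16031609. For genes with no start in the table, Fst, Tgfbr3 and Amh, the window was placed at the gene end with more listed positions, which at Amh is probably not the start. In the 9 windows measured the mean over 6 libraries ran from 0.377% to 0.613%, around the mitochondrial floor. All 9 were below 1%, as were 70.8% of the 15460 promoter ends measured genome-wide, whose median was 0.599%.

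Among the ligands, the beta B subunit gene Inhbb was the most densely measured, with 125 positions from 168 to 895 bp past its start. Its levels were 0.537%, 0.892% and 0.780% in hemicastrated mice against 0.478%, 0.321% and 0.668% in sham mice. The groups overlapped, since sham replicate 3 lay above hemicastrated replicate 1. The beta A subunit gene Inhba had 15 positions from 42 to 208 bp past its start, at 0.175%, 0.632% and 0.346% in hemicastrated mice against 0.476%, 0.654% and 0.392% in sham mice. Inhba was the one member with a lower group mean in hemicastrated mice at this end.

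The alpha subunit gene Inha had 20 positions in its window, but all of them, chr1:75505782-75506190, lay inside the neighbouring gene Obsl1 and nearer to its start, at 262 bp. They report on the shared upstream region and not on the start of Inha. Their levels were 0.434%, 0.561% and 0.448% in hemicastrated mice against 0.351%, 0.388% and 0.0787% in sham mice. Every hemicastrated mouse was higher than every sham mouse there, by a mean of 0.209 points with a standard error of 0.105, with all 6 levels under 0.617%, the highest mitochondrial share. The difference was 0.641 points with at least 5 reads per position and 0.112 points without sham replicate 3.

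At Amh the window lay at the end with the higher coordinate, where 44 positions spanned chr10:80807236-80807389. Mouse Amh is transcribed towards higher coordinates, so this is taken to be its far end and not its promoter. Its levels were 0.564%, 0.635% and 0.626% in hemicastrated mice against 0.249%, 0.315% and 0.649% in sham mice, with sham replicate 3 as high as the hemicastrated mice. The antagonist gene Fst had 77 positions, at 0.745%, 0.259% and 0.695% in hemicastrated mice against 0.378%, 0.554% and 0.488% in sham mice. Its hemicastrated mice took both the highest and the lowest value. The positions of Fst also lay inside the neighbouring gene Gm41074. At 1903 bp or more, the start of that gene was farther away than the end taken as the start of Fst.

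The receptor gene Acvr2a, with 155 positions from -412 to 693 bp around its start, had 0.363%, 0.353% and 0.588% in hemicastrated mice against 0.358%, 0.511% and 0.381% in sham mice. Acvr2b had 67 positions, at 1.09%, 0.213% and 0.364% in hemicastrated mice against 0.406%, 0.507% and 0.262% in sham mice. The value of hemicastrated replicate 1 was the only promoter-end level of a member above 1% in any library. In the patch 836 to 1415 bp past the start, which runs on past the promoter end, the same mouse had 1.59% and the others 0.0908% to 0.520%. The co-receptor gene Tgfbr3 had 61 positions, at 0.577%, 0.809% and 0.399% in hemicastrated mice against 0.405%, 0.596% and 0.417% in sham mice. The signal transducer gene Smad3 had 74 positions, at 0.425%, 0.432% and 0.525% in hemicastrated mice against 0.456%, 0.314% and 0.559% in sham mice, the groups lying within each other.

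**Figure D1:**
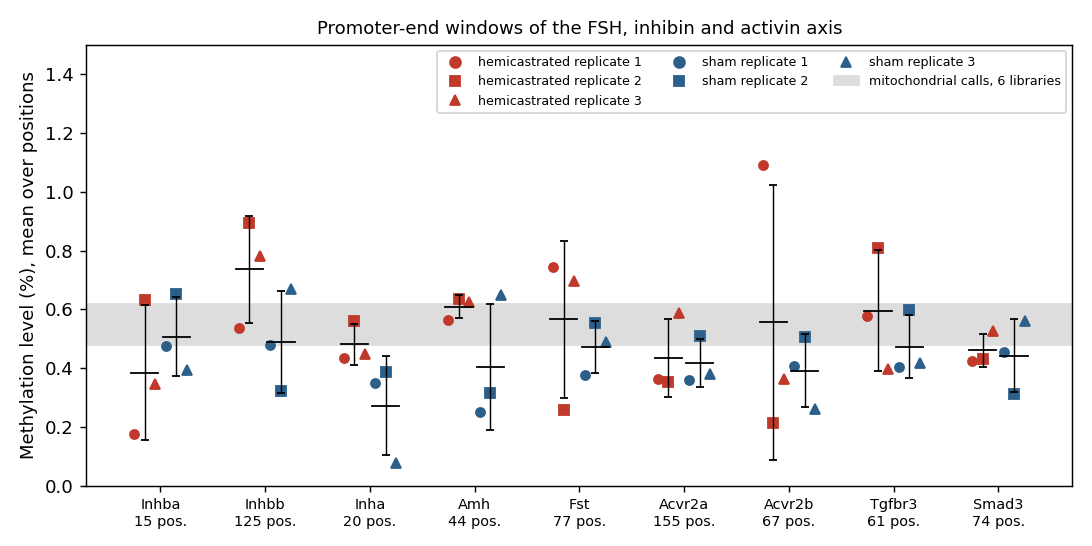
Methylation level in percent (vertical axis) in the promoter-end window of 9 axis genes (that of Amh being taken as its far end) (horizontal axis, with the number of positions) in 3 hemicastrated (red) and 3 sham mice (blue). Points are libraries, bars are means with SD, and the grey band spans the mitochondrial calls of the 6 libraries, 0.478% to 0.617%, around which all genes lie.

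In the comparison of hemicastrated with sham mice, none of the 9 promoter ends was called by edgeR's quasi-likelihood test on summed methylated and unmethylated counts, with Benjamini-Hochberg adjustment over 15442 tested ends. The background was equal, with 0 called genome-wide (0%), and limma also called 0, while 670 ends (4.34%) had an unadjusted p below 0.05, none of them a member. The smallest unadjusted p of a member was that of Inhbb, at 0.0798 (edgeR adjusted p = 0.995), for a difference of 0.247 points with a standard error of 0.145. The median difference over the 9 ends was 0.122 points, against 0.0294 over all ends. Of the 9, 8 had a higher mean in hemicastrated mice, as did 55.3% of all ends. Without Amh, left out after seeing the data, 7 of 8 were higher, with a median difference of 0.107 points. Several of these directions changed with the setting. Fst was at -0.0107 points by summed calls, and with at least 20 reads Fst and Acvr2b were at -0.0399 and -0.0395 points. Inhba was at 0.00161 points with at least 5 reads. Acvr2a, Acvr2b and Smad3 changed sign on leaving out a library. Inha, Inhbb, Amh and Tgfbr3 stayed higher under every alternative run. Groups did not overlap at 1 of the 9, the Inha window, against 9.68% of all ends. Every mean difference was smaller than the mitochondrial floor itself.

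The starts of Fshr, Inha and Amh were covered by too few reads for the comparison, and their calls were summed over the mice of a group instead. At Fshr, whose window of chr17:89199675-89202675 listed 38 positions, 24 of 295 calls were methylated in hemicastrated mice, or 8.14% (Wilson 95% interval 5.53% to 11.8%), against 43 of 360 in sham mice, or 11.9% (8.99% to 15.7%). Single libraries ranged from 0 of 48 calls in hemicastrated replicate 2 to 15 of 87 in sham replicate 1. Outside Obsl1, the start of Inha listed 43 positions, with 86 of 143 calls methylated in hemicastrated mice, or 60.1% (52.0% to 67.8%), against 98 of 147 in sham mice, or 66.7% (58.7% to 73.8%). The body of Inha, also too thinly read, was lower than its start. There 19 of 391 calls were methylated in hemicastrated mice, or 4.86% (3.13% to 7.46%), against 31 of 366 in sham mice, or 8.47% (6.03% to 11.8%). In the first 1000 bp of Amh from its low-coordinate boundary, 9 of 12 calls were methylated in hemicastrated mice and 12 of 13 in sham mice. The intervals of the groups overlapped at Fshr and Inha. They treat each call as independent, although PCR copies and calls on the same read are not, so they are too narrow even for counting error. The spread between mice does not enter them, and the sums weight mice by their reads. With the read minimum lowered to 5, a value added for Fshr after seeing the data, it kept 5 positions, at 5.36%, 0% and 3.10% in hemicastrated mice against 9.72%, 7.68% and 2.50% in sham mice, and the groups overlapped. All of these summed shares lie above the levels of the promoter-end windows, a difference that was not tested.

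Gene bodies, from 1000 bp past the start to the gene end, differed from gene to gene in level much more than between mice. Measured with at least 3 positions in 6 members, the mean level ran from 0.468% at Inhba to 90.8% at Smad3, with a median of 53.4%, against a median of 81.5% over 13100 gene bodies. Positions were grouped into patches wherever no more than 300 bp separated neighbours, which gave 54 patches, 16 of them below 1%, 33 above 70% and 5 in between.

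**Figure D2:**
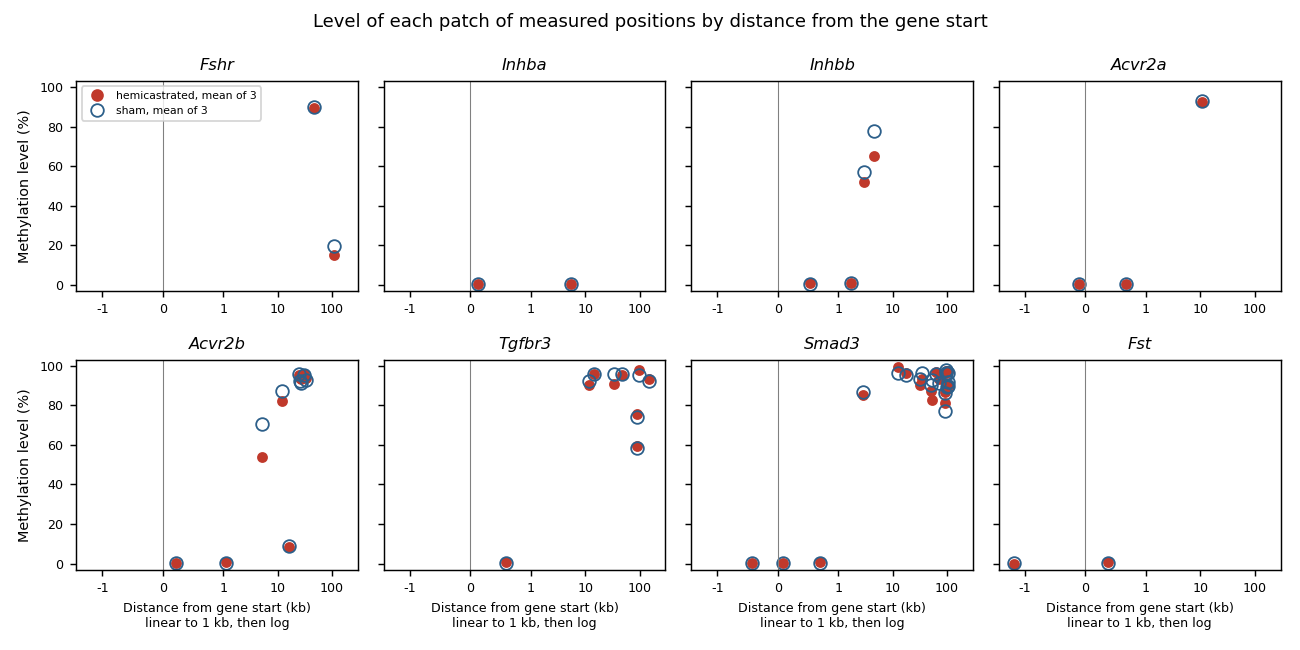
Methylation level in percent (vertical axis) of each patch of measured positions against its distance from the gene start in kb (horizontal axis, linear to 1 kb and logarithmic beyond) in 8 axis genes. Filled red points are means of 3 hemicastrated mice, open blue circles means of 3 sham mice. Patches near the start are unmethylated, those beyond 2.5 kb are mostly above 70%, and Inhba and an inner patch of Acvr2b and of Fshr stay low.

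The patches bracket the rise from the unmethylated end to the methylated body, and where it lies within these gaps was not measured. In Smad3, the patch at 592 to 815 bp past the start had a mean of 0.576% and the next, at 2571 to 3065 bp, 86.1%. In Inhbb, a gene of 6786 bp, a patch at 1573 to 1915 bp was still at 0.900%, and patches at 2946 to 3029 bp and 4543 to 4686 bp had 54.6% and 71.2%. In Acvr2b, 0.574% at 836 to 1415 bp was followed by a mean of 62.3% at 5085 to 5127 bp, described below by position, and by 84.6% at 12283 bp, but a patch of 17 positions 15808 to 15986 bp from the start, chr9:119417986-119418164, fell back to 8.74%. Inhba remained at 0.468% in a patch 5551 to 5661 bp past its start. In Acvr2a the 2 neighbouring positions measured in the body, 11009 bp from the start, were at 92.7%.

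The body level of Smad3 was 89.4%, 91.4% and 91.8% in hemicastrated mice against 89.7%, 92.2% and 90.4% in sham mice, over 99 positions. That of Tgfbr3 was 83.4%, 85.4% and 84.3% in hemicastrated mice against 84.5%, 84.5% and 83.8% in sham mice, over 37 positions. In both genes the groups overlapped almost fully. Within Tgfbr3, patches 91517 and 88425 bp from the start were only partly methylated, at 59.5% and 75.8% in hemicastrated against 58.5% and 74.3% in sham mice, while the other 6 body patches had 91.3% to 96.7%. Acvr2b had 46.3%, 46.0% and 46.6% in hemicastrated mice against 48.1%, 45.5% and 47.1% in sham mice over 73 positions, a mean over patches that ran from 0.574% to 95.5%. The inner low patch of Acvr2b was at 8.94%, 7.32% and 9.68% in hemicastrated mice against 10.2%, 5.55% and 10.7% in sham mice. Inhba had 0.291%, 0% and 1.47% in hemicastrated mice against 0.338%, 0.347% and 0.368% in sham mice over 8 positions.

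**Figure D3:**
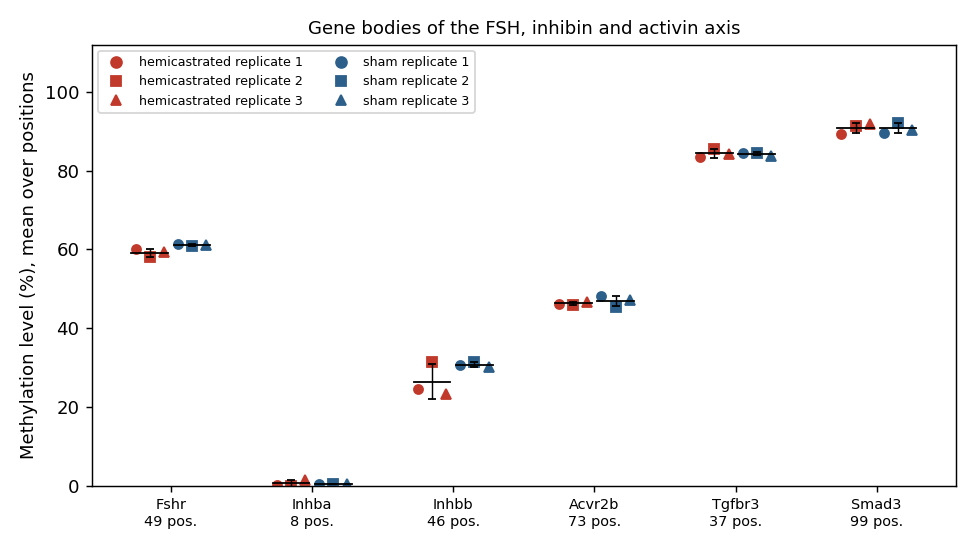
Methylation level in percent (vertical axis) in the bodies of 6 axis genes (horizontal axis, with the number of positions) in 3 hemicastrated (red) and 3 sham mice (blue). Points are libraries and bars are means with SD. Levels range from 0.468% at Inhba to 90.8% at Smad3, and the widest spread within a group is that of Inhbb in hemicastrated mice.

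None of the 6 bodies was called by edgeR's quasi-likelihood test over 13099 bodies, where 0 were called genome-wide (0%) and limma called 0. Before adjustment, 457 bodies (3.49%) fell under 0.05, of which 1 was a member, Inhbb. The median difference over the 6 was -0.233 points, against -0.0682 over all bodies, with 3 higher and 3 lower. Groups did not overlap at 1 of the 6, Fshr, against 9.29% of all bodies.

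Inhbb had the largest body difference among the 6 members. Its level was 24.6%, 31.5% and 23.3% in hemicastrated mice against 30.5%, 31.5% and 30.2% in sham mice over 46 positions, and hemicastrated replicate 2 stood with the sham mice. The means were 26.4% ± 4.39 and 30.7% ± 0.673 (SD, n = 3 each), a difference of -4.29 points with a standard error of 2.56 (exact two-sided permutation test, p = 0.3). By edgeR the unadjusted p was 0.00127 and the adjusted p 1.0 when rounded, so it was not called. As a methylated share of summed calls, on which the edgeR test rests, the difference was -8.90 points. In these sums each position counts by its reads, so the split of reads over patches of unlike level enters. Over positions with at least 20 reads the difference was -0.593 points, but that minimum left out every position of the patch 4543 to 4686 bp from the start. The difference of unweighted means was -6.79 points without hemicastrated replicate 2 and -2.70 points without hemicastrated replicate 3. The patch 4543 to 4686 bp from the start carried most of it. There the 12 positions averaged 61.5%, 78.3% and 55.0% in hemicastrated mice against 77.3%, 74.9% and 80.3% in sham mice, at a median of 14.5 reads. The adjoining patch, 2946 to 3029 bp from the start, had 45.5%, 61.4% and 49.1% in hemicastrated mice against 57.0%, 64.8% and 49.6% in sham mice. In both patches the values of the groups overlapped.

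Fshr, the receptor gene, was measured only in 2 patches deep in its 215724 bp. Its body level was 60.1%, 58.1% and 59.3% in hemicastrated mice against 61.5%, 60.8% and 61.2% in sham mice over 49 positions, and every hemicastrated mouse was lower than every sham mouse. The difference was -2.02 points with a standard error of 0.630 (two-sided exact permutation p = 0.1, which is the minimum here), but by summed calls it had the other sign, at 0.502 points, and edgeR gave an unadjusted p of 0.800. The patch 46381 to 47130 bp from the start had 87.7%, 91.9% and 88.8% in hemicastrated mice against 90.3%, 91.3% and 88.2% in sham mice. The patch 108534 to 108793 bp from the start, chr17:89091882-89092141, was mostly unmethylated, with 20.2%, 8.94% and 16.4% in hemicastrated mice against 19.8%, 16.7% and 21.9% in sham mice. Its position 89092140 stood apart, at 48.2%, 55.4% and 68.8% in hemicastrated mice against 63.3%, 57.8% and 57.4% in sham mice. The neighbouring position 89092141, taken as the other strand of the same CpG, had 28.6%, 16.7% and 26.7% in hemicastrated mice against 27.8%, 10.3% and 10% in sham mice.

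**Figure D4:**
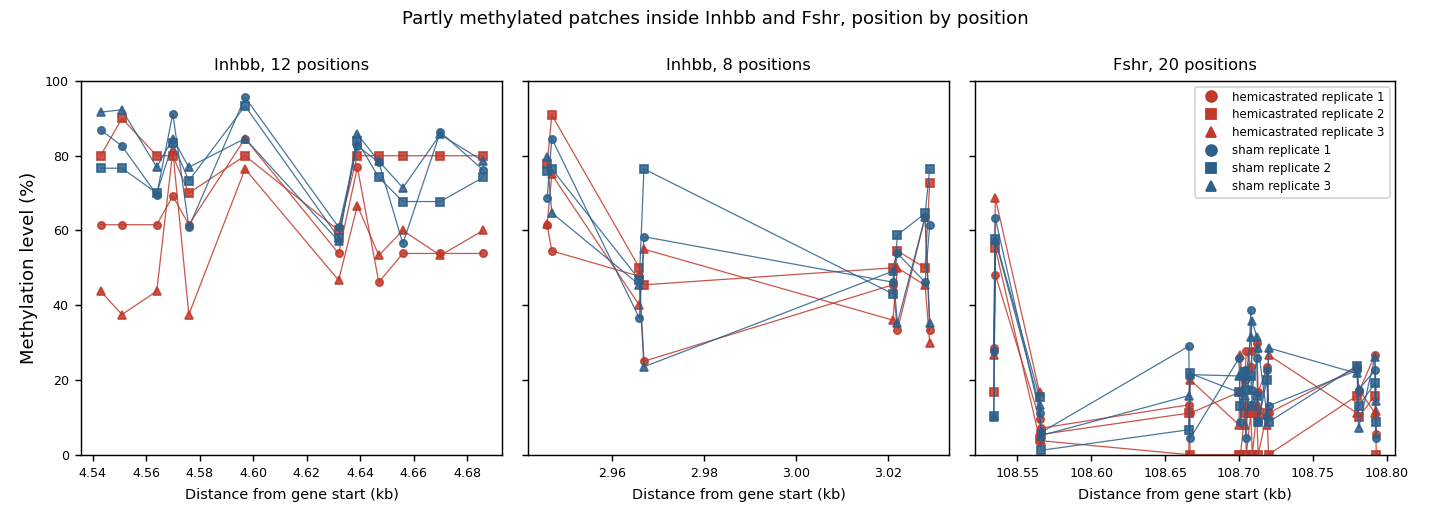
Methylation level in percent (vertical axis) at each position of the partly methylated patches of Inhbb (12 and 8 positions) and Fshr (20 positions) against the distance from the gene start in kb (horizontal axis). Lines join the positions of 1 library, hemicastrated red and sham blue. In the first Inhbb patch hemicastrated replicates 1 and 3 mostly run lowest, and in Fshr a single position exceeds 40% in all mice.

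Single positions were compared in a fit over all 814966 testable positions, of which edgeR's quasi-likelihood test called 706 (0.0866%). Of the 778 testable positions in the axis genes it called 0, limma called 0, and 22 (2.83%) had an unadjusted p below 0.05, against 2.62% genome-wide. Of all 952 positions, 30 (3.15%) had groups that did not overlap, 15 higher and 15 lower in hemicastrated mice, against 5.18% in the series. In this fit all positions shared 1 spread, so that a position's own spread between mice did not enter its test.

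The smallest p among positions with lower levels stood in Acvr2b, at the neighbouring positions chr9:119407263 and 119407264, 5085 bp past the start and taken as the strands of 1 CpG. Position 119407264 had 0%, 0% and 48.0% in hemicastrated mice against 95.2%, 0% and 51.2% in sham mice. Position 119407263 had 1.82%, 0% and 39.3% in hemicastrated mice against 92.6%, 0% and 41.2% in sham mice. The levels moved in steps that were shared by the strands, 54 to 115 reads deep, while the next CpG, 5126 and 5127 bp past the start, had 86.9% to 100% in all mice. The adjusted p by edgeR was 0.121 and 0.557. Without hemicastrated replicate 3 it was 2.65e-07 and 0.00054, and without sham replicate 2 it was 1.02e-05 and 0.000666, and with all 6 mice and the replicate number as a block it was 0.0307 and 0.230. Over all 10 alternatives the adjusted p ran up to 0.984 at both positions, and a robust prior, which lets positions differ in spread, gave unadjusted p of 0.504 and 0.491.

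Smad3 held the smallest p among positions with higher levels, at chr9:63666428, 91566 bp from its start. It had 0%, 0% and 78.9% in hemicastrated mice against 0% in each sham mouse at 12 to 19 reads (edgeR adjusted p = 0.289). Methylated calls were thus seen at this position in 1 mouse of 6 only, and their source was not tested. A second Smad3 position, 63723686, had 94.8%, 93.5% and 61.2% in hemicastrated mice against 97.9%, 98.6% and 95.1% in sham mice (edgeR adjusted p = 0.841). In Fshr, position 89153545 varied within the groups, with 33.9%, 95.8% and 47.1% in hemicastrated mice against 100%, 97.2% and 22.1% in sham mice (edgeR adjusted p = 0.841). Without sham replicate 3 it was called (edgeR adjusted p = 0.021), whereas the other alternatives gave 0.840 to 1. The neighbouring position 89153546, taken as the other strand of the same CpG, had 83.3% to 100% over all mice at 10 to 19 reads. The spread at position 89153545 was thus not shared by the strands, unlike that of the Acvr2b pair, and its source was not tested.

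Of the other positions named by rule, those of Fshr, Inhbb and Tgfbr3 lay in their partly methylated patches, at 11.1% to 38.7% in Fshr, 37.5% to 92.3% in Inhbb and 58.3% to 92.9% in Tgfbr3, each range covering both groups. In Acvr2b, position 119432741 had 100% in each hemicastrated mouse against 97.8%, 92.6% and 90.7% in sham mice. In the Acvr2a promoter, position 48813880 had 1.44%, 1.21% and 1.94% in hemicastrated mice against 0% in each sham mouse, and position 48813727 had 2.17%, 3.57% and 8.11% in hemicastrated mice against 0% in each sham mouse. Position 48814095 of the same promoter went the other way, at 0.943%, 0% and 0% in hemicastrated mice against 0.980%, 2.78% and 4.11% in sham mice. The Acvr2b position and the 3 Acvr2a positions had an edgeR adjusted p of 0.841. The largest differences in the promoter-end positions of Inha, Inhba, Fst and Amh were between -2.95 and 2.78 points. Of the 952 positions, 8 spanned 40 points or more over the mice (0.840%), against 1.38% in the series. They were the Acvr2b pair, the Fshr position, the first Smad3 position and 4 positions in the patches of Inhbb.

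**Figure D5:**
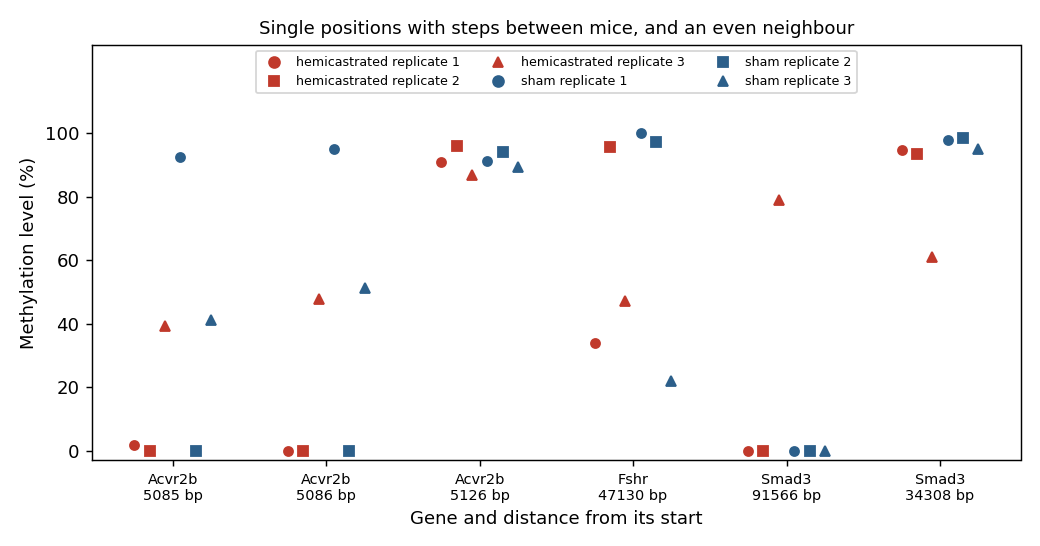
Methylation level in percent (vertical axis) at 6 single positions of Acvr2b, Fshr and Smad3, named by gene and distance from its start in bp (horizontal axis), in 3 hemicastrated (red) and 3 sham mice (blue). The Acvr2b pair at 5085 and 5086 bp takes levels near 0%, 40% to 50% and over 90%, while its neighbour at 5126 bp is above 86% in every mouse.

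The wider pathway, a list of 44 genes of the gonadotropin and TGF-beta families, their receptors and Sertoli cell regulators, was compared in the same fits. Of its 30 measured promoter ends, 16 were higher and 14 lower in hemicastrated mice, with a median difference of 0.0605 points, and edgeR called 0, as among all ends (0%). Groups did not overlap at 4 of the 30, against 9.68% of all ends. The smallest p belonged to Tgfb2, which encodes a TGF-beta ligand, at 0.352%, 0.239% and 0.191% in hemicastrated mice against 0.686%, 0.412% and 0.462% in sham mice (edgeR unadjusted p = 0.0513, adjusted p = 0.995). Prkar2b, a regulatory subunit of protein kinase A, followed at 2.04%, 0.511% and 0.476% in hemicastrated mice against 0.487%, 0.438% and 0.627% in sham mice, where hemicastrated replicate 1 stood alone. Of 34 measured bodies, 16 were higher and 18 lower, with a median difference of -0.0125 points, edgeR called 0, and groups did not overlap at 4, against 9.29% of all bodies. The smallest p were those of the activin-related type I receptor genes Tgfbr1, with 97.2% in hemicastrated against 98.2% in sham mice, and Acvr1, with 89.5% in hemicastrated against 92.4% in sham mice (edgeR adjusted p = 1.0 each when rounded). Of 5 measured flanks past the gene end, edgeR called 0, against 1 of 2688 genome-wide (0.0372%). Groups overlapped at all 5, against 9.33% of flanks without overlap, and 1 of the 5 had an unadjusted p below 0.05, against 4.69%. The smallest p there were at Prkaca, at 0.545% in hemicastrated against 0.440% in sham mice (edgeR unadjusted p = 0.0376), and at Usf1, at 89.6% in hemicastrated against 90.5% in sham mice.

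Of the 30 promoter windows of the list, 25 were below 1% and 26 below 5%, with a median of 0.651%. Usf2, Gnas, Lhcgr and Inhbe lay above 5%. Usf2 had 6.42% in hemicastrated against 7.21% in sham mice, without overlap of the groups (edgeR adjusted p = 0.996). Gnas had 8.91% in hemicastrated against 9.88% in sham mice. Lhcgr, the luteinizing hormone receptor gene, had 10.5%, 5.81% and 3.48% in hemicastrated mice against 5.89%, 2.80% and 6.47% in sham mice over 9 positions. Inhbe, a further beta subunit gene, had 56.6%, 54.4% and 53.4% in hemicastrated mice against 57.7%, 59.7% and 59.2% in sham mice over 3 positions, without overlap of the groups (edgeR adjusted p = 0.999). Lhcgr and Inhbe were chosen for display by mouse after their values were seen, as members of the hormone families of the axis.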

How the data were processed

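MspI fragments were size selected, treated with bisulfite (EZ DNA Methylation-Gold kit) and read on an Illumina GAII, per the labels' protocols. Bismark, TopHat2 2.0.11 and build GRCm38 were used, per the submitters' processing notes, with no role stated. Unknown are the Bismark version, trimming and any removal of duplicate reads, which the sources used here do not give. Each position's deposited values are the authors' raw methylated and unmethylated read counts and the methylation level in percent. Strand and context are not in the files. 

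Genes came from RefSeq on GRCm38.p6. Of 34614 genes, 27025 had a start in the promoter table; for others the end with more listed positions was used, which was the start in 73.1% of genes where both are known. Features needed 3 positions with 10 reads in all 6 libraries. They were fitted over the whole table with edgeR 4.0.16 in R 4.3.3 (limma 3.58.1 as an alternative), on summed counts with a term per library and a methylation by group term, Benjamini-Hochberg adjusted at 0.05. The script was tested on simulated data with the spread of the real fits, after a first simulation with a preset spread had recovered few of its shifts. Of shifts of 25 points it recovered 95.5% at promoter ends, 100% in bodies, 98.8% in downstream flanks and 43% at single positions. False calls were 11, 17, 5 and 0 in that order. Features with a spread of their own were not simulated, so this recovery holds at the shared spread only. The shifts were placed at intermediate levels only, so recovery at windows near the floor was not tested. Features methylated in no or every read were left out of the fit. For single values a two-sided exact permutation test was used, whose smallest p is 0.1. The p-values of features draw on the spread between these mice. Those of single positions in the main fit rest on a spread shared by all positions, not on each position's own. The members, lists and tests were chosen with earlier results of these data known. The rule for named features took all 10 genes, the 3 positions with the smallest p in each direction, up to 2 positions per gene with the largest difference, and the 2 pathway genes with the smallest p per compartment. Alternatives were another model, prior, read minimum, window or weighting, joined strands, a replicate block and leaving out each library. Replicate numbers were not taken as pairs.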

Additional observations from a re-analysis of the deposited data

How the results depend on the processing

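The call count of 0 among the member promoter ends and the member bodies held under all alternatives run. Genome-wide, promoter ends called were 4 with the replicate number as a block and 0 to 1 with a library left out; bodies were 0 to 1 with a library left out; downstream flanks were 0 with limma, with the replicate block and without positions spanning 40 points or more, and 0 to 1 with a library left out. Single positions called were 147 with limma, 446 with a robust prior and 588 to 773 with a library left out, against 706. Member positions called were 1 with the replicate block (Acvr2b, position 119407264, edgeR adjusted p = 0.0307) and 0 to 2 with a library left out. The numbers share no stated pairing, and the deviations of same-numbered mice correlated across features with r of 0.0910 to 0.186 at promoter ends and 0.0042 to 0.0749 in bodies. Mice of unlike number had r of -0.142 to 0.0256 at promoter ends and -0.0708 to 0.0303 in bodies. At promoter ends every same-numbered pair thus lay above every other pair, while in bodies the ranges overlapped. Whether the numbers mark a shared batch was not tested. Member features whose groups did not overlap were 2, at 1 of 9 promoter ends and 1 of 6 bodies, against 9.68% and 9.29% of all. They were 1 each with at least 20 reads, without positions spanning 40 points or more, by summed calls and with 1000 bp either side of the start. With a library left out they were 2 to 5, where groups of 3 and 2 mice separate more easily. The share over all features was not counted under these alternatives, so these counts are not read as a result. Of 82 member differences under other settings, 9 moved by more than the spread between mice and 13 changed sign; of 90 with a library left out, 0 moved so far and 13 changed sign. At Tgfbr3 the body difference was -1.39 points with at least 20 reads and 0.976 points with at least 5, against 0.108. Depth limits the read-out at the starts of Fshr, Inha and Amh, and in the promoter-end windows the mitochondrial floor does.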
